A study of Tetranychus urticae with 24 samples.

Results

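The expression of 2 lipocalin genes and 3 immunoglobulin E-set genes of the two-spotted spider mite, Tetranychus urticae, was followed through 4 synergist treatments and 2 controls. The lipocalins tetur04g06010 and tetur16g03460 are described in the study as apolipoprotein D precursors, and tetur01g02650, tetur14g01700 and tetur14g02060 as immunoglobulin E-set proteins. They are 5 of the 19087 genes in the count table, and all 5 passed the filter on low counts that left 12736 genes. They were chosen from genes that the study listed as changed in these same libraries, so the values that chose them are given as a description, without a test. These were DEF for tetur04g06010 and tetur01g02650, PBO and DEM for tetur16g03460, DEF and CsA for tetur14g01700, and CsA for tetur14g02060. Every choice was made against the FORM libraries. FORM over CON is therefore given for the 5 genes as a description too, and tests of the other synergists against FORM share those FORM libraries with the choice. The remaining gene and comparison pairs were tested.

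The mites were adult females of strain JP-R, which is resistant to the acaricides cyenopyrafen and cyflumetofen, and each of the 24 libraries was made from a whole-body pool of about 100 mites that were alive 24 h after treatment. All groups share this strain, so no susceptible mites were compared. Each group had 4 biological replicates. PBO was piperonyl butoxide at 1000 ppm, an inhibitor of cytochrome P450 enzymes. DEF was S,S,S-tributyl phosphorotrithioate at 500 ppm, an inhibitor of carboxyl esterases. DEM was diethyl maleate at 2000 ppm, which depletes glutathione, and CsA was cyclosporin A at 50 ppm, an inhibitor of P-glycoproteins in vertebrates. FORM was the carrier alone, N,N-dimethylformamide with emulsifier W, and CON was not sprayed. Doses differ between the synergists, so the direct comparisons set 1 dose of each beside 1 dose of the other.

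Lipocalins are small, mostly secreted proteins that fold into a barrel around a pocket for hydrophobic molecules such as fatty acids, retinoids and steroids. Apolipoprotein D is the member of the family that in mammals binds arachidonic acid and progesterone, and its relatives in Drosophila are known for roles in tolerance of oxidative stress and in lifespan. The E-set is a group of protein domains with an immunoglobulin-like sandwich of beta sheets. It includes the MD-2-related lipid-recognition proteins, among them the sterol carrier NPC2 and the group-2 allergens of house dust mites, and the study describes tetur14g01700 as a secreted protein of that kind. How these genes act in spider mites is not known from these data. No protein or promoter sequence of the 5 genes is shown, since none of the gene IDs was found in the reference table used here.

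The libraries held between 13824851 and 18198286 counts, with a median of 15758427. Levels are given as CPM, counts set relative to the library total after TMM scaling, and changes as log2 FC of the first group over the second from edgeR. A gene was called when its Benjamini-Hochberg adjusted p was under 0.05 and its FC was at least 1.5 in either direction. Replicates differed by more than sampling noise in every group (chi-square per degree of freedom of 3.47 to 54.1). DEM1 stood apart from the other DEM libraries at 45.0 to 51.1, against 3.47 to 5.87 among the others. CON3 stood apart at 18.4 to 54.1, against 9.75 to 16.9 among the other CON libraries, and CsA4 at 17.4 to 22.4, against 4.28 to 11.6 among the other CsA libraries. These 3 libraries were kept. The PBO libraries also spread, from 4.98 (PBO1 with PBO2) to 23.1 (PBO2 with PBO4). PBO4 was the lowest PBO library for each of the 5 genes. Both vitellogenins checked, the yolk protein precursors of egg-laying females, were present in all 24 libraries (tetur20g01230 at 74.4 to 261 CPM, tetur07g05480 at 471 to 1473 CPM). In whole-body pools, fewer cells of a type and less RNA per cell cannot be told apart.

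The first lipocalin, tetur04g06010, was expressed at a low level. It had 4.41, 4.49, 4.98 and 3.93 CPM in the PBO libraries, 9.47, 6.88, 8.25 and 10.8 CPM in the DEF libraries, 5.88, 2.37, 1.64 and 2.92 CPM in the DEM libraries and 4.62, 3.92, 7.19 and 5.36 CPM in the CsA libraries. The FORM libraries had 2.87, 1.90, 3.68 and 5.31 CPM, and the CON libraries 4.32, 2.01, 1.16 and 3.43 CPM. The 4 DEF libraries were all above every FORM and every CON library, while the other treatments overlapped both controls.

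DEF, which chose this gene, averaged 8.85 ± 1.67 CPM for tetur04g06010 and FORM 3.44 ± 1.44 CPM (SD, n = 4 each), an FC of 2.60 (log2 FC 1.38, SE 0.325). Against CON, at 2.73 ± 1.41 CPM, the DEF log2 FC was 1.69 (SE 0.330). The groups ran from DEF through CsA (5.27 ± 1.41), PBO (4.46 ± 0.430), FORM and DEM (3.20 ± 1.86) to CON, and each neighbouring pair in this order overlapped in range. In the 3 other synergist groups the gene was not called against FORM. Its log2 FC was 0.39 with PBO (SE 0.341, edgeR adjusted p = 0.513), -0.10 with DEM (SE 0.354, edgeR adjusted p = 0.886) and 0.63 with CsA (SE 0.339, edgeR adjusted p = 0.25). For CsA the 95% interval of the log2 FC was -0.03 to 1.29, which leaves room for a change past an FC of 1.5. DEM was lower than PBO by a log2 FC of -0.49 (edgeR adjusted p = 0.266). Without DEM1, the DEM library with the highest level, that difference was -0.95 and passed the thresholds (edgeR adjusted p = 0.0343). The level spread widely within groups, with a coefficient of variation of 9.64% in PBO, 58.1% in DEM and 51.8% in CON.

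The second lipocalin, tetur16g03460, was lowest with DEM and highest with PBO. It had 9.99, 12.1, 9.15 and 5.71 CPM in the PBO libraries, 2.80, 3.78, 4.37 and 2.47 CPM in the DEF libraries, 0.98, 1.05, 0.98 and 1.46 CPM in the DEM libraries and 3.48, 10.9, 2.18 and 4.50 CPM in the CsA libraries. The FORM libraries had 5.46, 3.69, 4.02 and 6.63 CPM, and the CON libraries 8.93, 8.69, 5.21 and 6.01 CPM. Every DEM library lay below every other library of the series, and a single CsA library, CsA2, stood well above the other CsA libraries.

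DEM averaged 1.12 ± 0.231 CPM for tetur16g03460, from 15 to 26 counts a library, and FORM averaged 4.95 ± 1.36 CPM (SD, n = 4 each). The FC with DEM was -4.37 (log2 FC -2.13, SE 0.409). PBO averaged 9.23 ± 2.65 CPM, an FC of 1.87 over FORM (log2 FC 0.90), and its libraries overlapped those of FORM. Both of these comparisons chose the gene. Set directly against each other, DEM was lower than PBO by an FC of -8.17. The group order was PBO, CON, CsA, FORM, DEF and DEM, and only DEF and DEM, its last neighbours, did not overlap.

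The change of tetur16g03460 with PBO depended on the control. FORM was below CON (7.21 ± 1.88 CPM) by a log2 FC of -0.55 (SE 0.322), with overlapping libraries. PBO over CON had a log2 FC of 0.35, and DEM over CON one of -2.68. With DEF, which did not choose the gene, the log2 FC was -0.56 against FORM (SE 0.353, edgeR adjusted p = 0.352, exact permutation p = 0.143) and -1.11 against CON (SE 0.339, edgeR adjusted p = 0.0304). The DEF libraries lay below all 4 CON libraries and overlapped those of FORM. CsA did not change the gene detectably, at a log2 FC of 0.10 against FORM (SE 0.335, edgeR adjusted p = 0.883), and without CsA2 the value was -0.53 (edgeR adjusted p = 0.311).

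**Figure D1:**
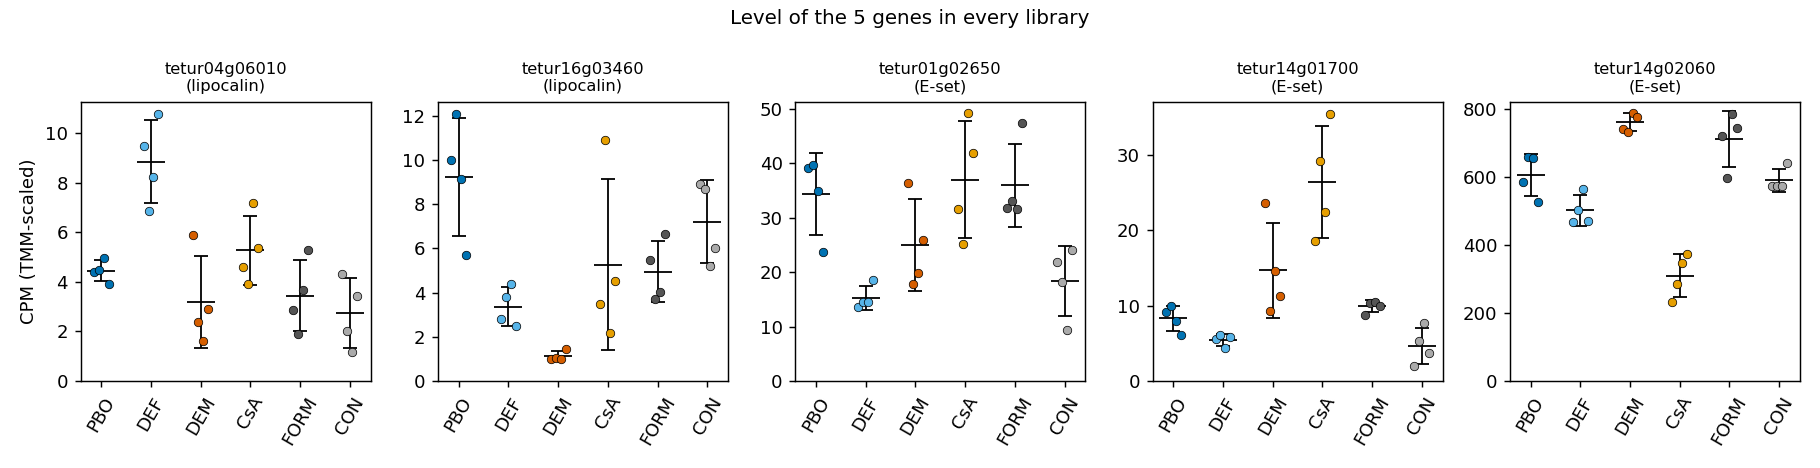
Level of the 5 genes in every library, in CPM on a linear axis from 0 with a scale of its own for each gene. Points are single libraries in the order PBO, DEF, DEM, CsA, FORM and CON, and bars give the mean and SD of 4 libraries. The DEM libraries of tetur16g03460 sit between 0.98 and 1.46 CPM, below all others, and the CsA libraries of tetur14g02060 between 232 and 373 CPM, below all others.

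The first E-set gene, tetur01g02650, had 39.2, 39.7, 34.8 and 23.6 CPM in the PBO libraries, 13.5, 14.5, 14.5 and 18.5 CPM in the DEF libraries, 36.4, 17.8, 19.7 and 25.9 CPM in the DEM libraries and 31.5, 25.1, 49.3 and 41.8 CPM in the CsA libraries. The FORM libraries had 31.7, 33.0, 31.6 and 47.4 CPM, and the CON libraries 21.8, 18.2, 9.37 and 24.1 CPM. The DEF libraries were all below those of FORM, and so were all 4 CON libraries.

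DEF, which chose tetur01g02650, averaged 15.2 ± 2.20 CPM and FORM 35.9 ± 7.65 CPM (SD, n = 4 each), an FC of -2.36 (log2 FC -1.24). Unsprayed mites averaged 18.4 ± 6.45 CPM, and against them the DEF log2 FC was -0.27 (SE 0.262), with overlapping libraries. FORM over CON gave an FC of 1.95 (log2 FC 0.97, SE 0.250). The 2 controls did not overlap, but the gene was chosen for DEF libraries below these same FORM libraries, which favours a high FORM level. The values of the other treatments moved with the choice of control. PBO was at a log2 FC of -0.06 against FORM (SE 0.241, edgeR adjusted p = 0.905) and 0.90 against CON (SE 0.250, edgeR adjusted p = 0.0137). CsA was at 0.04 against FORM (SE 0.242, edgeR adjusted p = 0.935) and 1.01 against CON (SE 0.250, edgeR adjusted p = 0.019). DEM was not called against either control, at -0.53 against FORM (SE 0.245, edgeR adjusted p = 0.159, exact permutation p = 0.114) and 0.44 against CON (edgeR adjusted p = 0.245). Without CON3, DEM1 and CsA4, a fit chosen after seeing the data, the value of DEM against FORM was -0.76 and passed the thresholds (edgeR adjusted p = 0.0215). Of these libraries only DEM1 belongs to the comparison. Without DEM1 alone the value was -0.77 and was not called (edgeR adjusted p = 0.0782).

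The second E-set gene, tetur14g01700, the one described as a group-2 allergen, had 9.13, 9.97, 8.03 and 6.15 CPM in the PBO libraries, 5.54, 6.14, 4.37 and 5.85 CPM in the DEF libraries, 23.7, 9.35, 14.6 and 11.3 CPM in the DEM libraries and 18.6, 29.2, 22.5 and 35.4 CPM in the CsA libraries. The FORM libraries had 8.80, 10.4, 10.5 and 9.99 CPM, and the CON libraries 2.02, 5.27, 7.66 and 3.69 CPM. CsA lay above both controls and DEF below FORM in every library.

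CsA averaged 26.4 ± 7.41 CPM for tetur14g01700 and FORM 9.92 ± 0.781 CPM (SD, n = 4 each), an FC of 2.67. DEF averaged 5.48 ± 0.776 CPM, an FC of -1.81 against FORM. Both treatments chose the gene, and DEF was lower than CsA by an FC of -4.82. Against CON, at 4.66 ± 2.40 CPM, the FC with CsA was 5.69 and the log2 FC with DEF was 0.24 (SE 0.319). The decrease with DEF was thus seen against FORM and not against CON. FORM over CON had a log2 FC of 1.09 (SE 0.299, FC 2.13), again with no overlap, and 1.43 when CON3, DEM1 and CsA4 were left out together. The FORM libraries had entered the choice of this gene as well.

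DEM, which did not choose tetur14g01700, averaged 14.7 ± 6.34 CPM. Its log2 FC was 0.57 against FORM (SE 0.270, edgeR adjusted p = 0.168, exact permutation p = 0.143) and 1.66 against CON (SE 0.291, edgeR adjusted p = 0.00167), where the libraries did not overlap. DEM was higher than PBO, at 8.32 ± 1.65 CPM, by a log2 FC of 0.82 (SE 0.274, edgeR adjusted p = 0.0223, exact permutation p = 0.0571). This call was lost without DEM1 (log2 FC 0.50, edgeR adjusted p = 0.14), without PBO4 (0.71, edgeR adjusted p = 0.0724) and without PBO3 (0.80, edgeR adjusted p = 0.0502). PBO was at -0.25 against FORM (SE 0.282, edgeR adjusted p = 0.627).

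The third E-set gene, tetur14g02060, had a coefficient of variation of 3.51% (DEM) to 20.3% (CsA) within groups. It had 585, 656, 654 and 526 CPM in the PBO libraries, 467, 501, 564 and 470 CPM in the DEF libraries, 741, 732, 787 and 776 CPM in the DEM libraries and 232, 285, 346 and 373 CPM in the CsA libraries. The FORM libraries had 719, 596, 784 and 743 CPM, and the CON libraries 573, 571, 573 and 640 CPM. Each CsA library was below every other library of the series.

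CsA, which chose tetur14g02060, averaged 309 ± 62.9 CPM and FORM 710 ± 81.2 CPM (SD, n = 4 each), an FC of -2.30 (log2 FC -1.20). Against CON, at 589 ± 33.6 CPM, the log2 FC was -0.93. With DEF, which did not choose it, the gene averaged 501 ± 45.1 CPM and was below every FORM library, by an FC of -1.42 (log2 FC -0.50, SE 0.11, edgeR adjusted p = 0.00468, exact permutation p = 0.0286, the smallest that 4 against 4 can give). This met the adjusted p and not the minimum FC of 1.5, so it was not called, and against CON the value was -0.24 (SE 0.11, edgeR adjusted p = 0.154). The gene was chosen for CsA libraries below these same FORM libraries, which favours a high FORM level and a lower value for DEF over FORM. DEM averaged 759 ± 26.6 CPM, at a log2 FC of 0.10 against FORM (SE 0.11, edgeR adjusted p = 0.603) and 0.37 against CON (edgeR adjusted p = 0.0337, FC 1.29). DEF was lower than DEM by an FC of -1.52 (log2 FC -0.60, edgeR adjusted p = 3.87e-04), which passed both thresholds. The FC fell under 1.5 without DEF1, DEF4 or DEM3, at log2 FC of -0.57, -0.57 and -0.58, with edgeR adjusted p of at most 0.00266. DEM was higher than PBO by a log2 FC of 0.33 (edgeR adjusted p = 0.0225), under the minimum FC. PBO was at -0.23 against FORM (SE 0.11, edgeR adjusted p = 0.193).

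**Figure D2:**
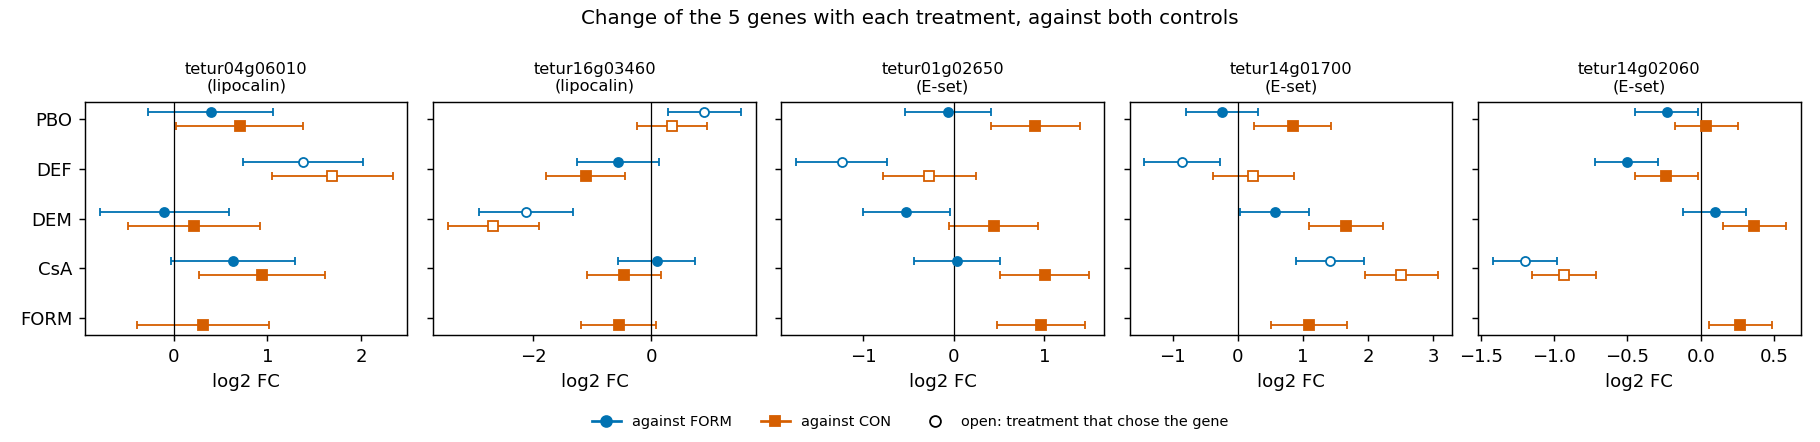
Log2 FC of the 5 genes with each treatment and with FORM, against FORM (circles) and against CON (squares), with bars of 1.96 SE from edgeR. Open symbols mark treatments that chose the gene, and each gene has a scale of its own. For tetur01g02650 and tetur14g01700 the values against CON lie 0.97 and 1.09 to the right of those against FORM.

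Of the pairs of a gene and a synergist over FORM, 7 had chosen the gene and 13 had not. None of the 13 was called by edgeR, DESeq2 or limma-voom, and 4 had an unadjusted edgeR p under 0.05, namely 1 with PBO, 1 with DEF and 2 with DEM. Over all genes tested, the share with an unadjusted p under 0.05 was 24.6% with PBO, 23.7% with DEF, 28.5% with DEM and 24.9% with CsA. The share of all tested genes called was 2.65% for PBO over FORM, 2.7% for DEF over FORM, 2.21% for DEM over FORM, 1.1% for CsA over FORM and 0.0236% for FORM over CON. Of the 7 chosen pairs, 5 met both thresholds, and PBO with tetur16g03460 and DEF with tetur14g01700 did not. These counts follow from the choice of the genes. With CON as control, 4 of the 13 pairs of a synergist that had not chosen the gene were called, namely DEF with tetur16g03460, PBO and CsA with tetur01g02650 and DEM with tetur14g01700. Over all genes tested the share called against CON was 6.2% with PBO, 4.37% with DEF, 2.63% with DEM and 2.66% with CsA. The comparisons of synergists with CON were not refitted with a library left out.

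Between synergists, 11 of the 30 pairs involved no treatment that chose the gene. The 2 called, by edgeR, DESeq2 and limma-voom alike, were DEM over PBO for tetur14g01700 (1 of 4 such genes, against 11.7% of all genes) and DEF over DEM for tetur14g02060 (the only such gene, against 8.03% of all genes). None was called for PBO over DEF (1 gene, 0.345% of all genes called), PBO over CsA (2 genes, 9.75%), DEM over CsA (2 genes, 0.597%) or DEF over CsA (1 gene, 6.29%). At an unadjusted edgeR p under 0.05 there were 1, 0, 2 and 0 such genes in these 4 comparisons, where the share of all genes was 15.5%, 42.8%, 5.8% and 33.8%. With so few genes, no share can be read against that of all genes.

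The yolk precursors moved with DEF as well. Against FORM, tetur20g01230 was higher with DEF by an FC of 2.13 and tetur07g05480 by an FC of 1.59. With PBO, tetur20g01230 was also higher (FC 1.51). Both genes were taken from the study's tables, which list genes that changed in these libraries. These values are therefore a description and no independent evidence. Neither was called with DEM or CsA. The part of the yolk state of the females in the changes of the 5 genes with DEF was not tested.

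The study's tables describe 2 further genes as apolipoprotein D, tetur16g03410 and tetur06g03090, and 1 further gene as E-set, tetur14g02070. They were listed because they changed in these libraries, so their direction is no independent evidence. Of the 4 lipocalin genes, 1 was higher with PBO, 1 was higher with DEF, 2 were lower with DEM and none was called with CsA or between FORM and CON by edgeR. The median log2 FC of the 4 was 0.73 with PBO, 0.30 with DEF, -1.0 with DEM, 0.40 with CsA and -0.30 for FORM over CON, where the median over all genes was at most 0.01. The PBO call was tetur06g03090, which had not been listed for PBO and averaged 13.3 ± 1.33 CPM with PBO and 8.50 ± 2.61 CPM with FORM (SD, n = 4 each, log2 FC 0.66, edgeR adjusted p = 0.0288). It was lost without PBO3, FORM1 or FORM2, and no lipocalin was called with PBO against CON. With DEM, tetur06g03090 averaged 3.96 ± 0.862 CPM.

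Of the 4 E-set genes, 2 were lower with DEF, 1 was higher and 1 lower with CsA, and none was called with PBO, with DEM or between FORM and CON by edgeR. Their median log2 FC was -0.24 with PBO, -0.79 with DEF, -0.05 with DEM, -0.14 with CsA and 0.62 for FORM over CON. The 2 directions with CsA, up for tetur14g01700 and down for tetur14g02060, were the ones that chose these genes. With CON as control no E-set gene was called with DEF.

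The E-set genes tetur14g02060 and tetur14g02070 have neighbouring IDs and were set beside each other within each library. tetur14g02070 averaged 246 ± 65.4 CPM with CsA and 308 ± 38.0 CPM with FORM (SD, n = 4 each, log2 FC -0.32, edgeR adjusted p = 0.188). Within a library, the CPM of tetur14g02060 relative to that of tetur14g02070 was 1.27 ± 0.121 with CsA (1.11 to 1.39) and 2.31 ± 0.108 with FORM (2.16 to 2.40). It was 2.41 ± 0.286 with PBO, 2.72 ± 0.334 with DEF, 2.85 ± 0.360 with DEM and 2.30 ± 0.204 with CON. The CsA libraries lay below the lowest library of any other group, at 2.13. Since tetur14g02070 was itself lower on average with CsA than with PBO, DEM, FORM or CON, the low ratio against these groups follows from the CsA values of tetur14g02060 that chose it, and it is given as a description. The ratio compares libraries, and its absolute value also depends on gene length, which was not used.

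**Figure D3:**
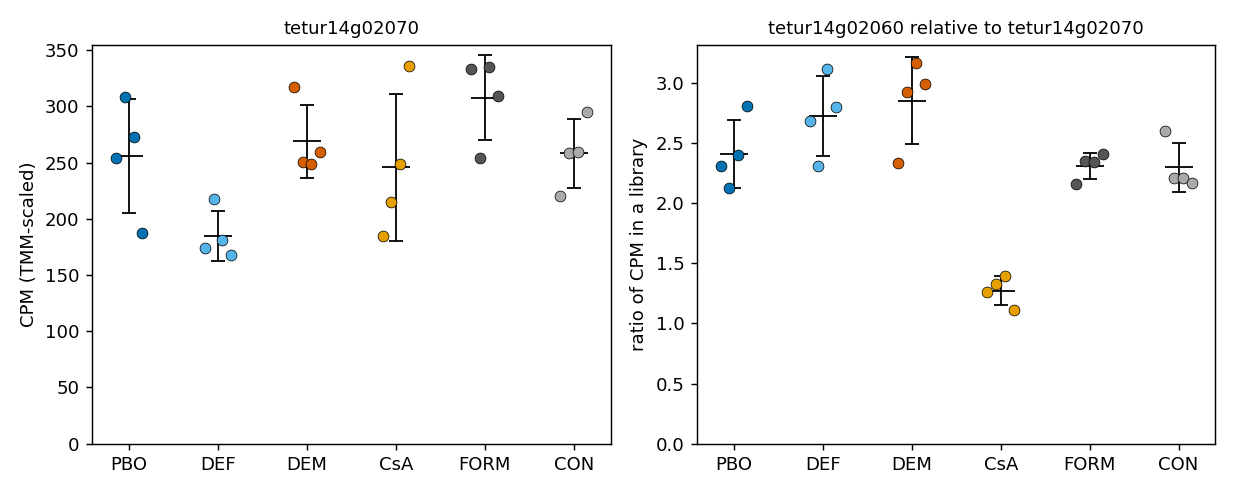
Left, CPM of tetur14g02070 in every library. Right, CPM of tetur14g02060 divided by that of tetur14g02070 in the same library, with the mean and SD of 4 libraries. The ratio is 1.11 to 1.39 in the CsA libraries and at least 2.13 in all others.

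Within 100 of the members' gene numbers 93 other genes were listed and 66 were tested. Over FORM edgeR called only tetur14g02070 with DEF among them, the treatment for which the study had listed it. The share of all genes called over FORM was 2.65% with PBO, 2.7% with DEF, 2.21% with DEM and 1.1% with CsA. The count among 66 genes is too small to be read against these shares. The median log2 FC of the 66 over FORM was -0.02 with PBO, -0.05 with DEF, -0.02 with DEM and 0.05 with CsA. Single neighbours lay far from it. tetur16g03490 was named after its values were seen. Its log2 FC was 1.32 with PBO, 1.22 with DEF, 0.58 with DEM and 1.22 with CsA. edgeR did not call it here, but the study listed it as upregulated with PBO, DEF and CsA. tetur16g03410 was at -0.91 with DEM. Between synergists, 11 of the 66 (16.7%) were called for DEM over PBO by edgeR, against 11.7% of all genes. For PBO over CsA 5 (7.58%) were called, against 9.75%. For DEF over DEM and DEF over CsA 4 each (6.06%) were called, against 8.03% and 6.29%. None was called for PBO over DEF or DEM over CsA, against 0.345% and 0.597%. When CON was the control, 9 were called in some treatment, a count pooled over the synergists. For single treatments the share of all genes was then 6.2% with PBO, 4.37% with DEF, 2.63% with DEM and 2.66% with CsA. The pooled count cannot be read against these single shares. Exact gene positions were not used here.

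Among all 12736 genes, the gene whose log2 CPM was most like that of tetur16g03460 over the 24 libraries was its relative tetur16g03410 (Pearson r 0.91, and 0.79 after centring each group). Next came tetur20g00670 (r 0.80, centred 0.53) and tetur06g03010 (r 0.77, centred 0.69). In CsA2, the library in which tetur16g03460 reached 10.9 CPM, tetur16g03410 was at 23.7 CPM, against 7.30, 5.23 and 9.20 CPM in the other CsA libraries. Multiply mapped reads are dropped by the counter by default, so near-identical copies could be undercounted, and how alike these genes are in sequence was not tested.

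For tetur01g02650 the most similar gene was tetur01g02670, which lies 20 apart in ID (r 0.91, centred 0.88). It averaged 2256 ± 36.5 CPM with DEF, 3169 ± 378 CPM with FORM and 2356 ± 674 CPM with CON, the same order of DEF, CON and FORM as in tetur01g02650. Since tetur01g02670 was picked for its likeness over these same libraries, a shared order was favoured in advance. Next were tetur04g00680 (r 0.89, centred 0.82) and tetur15g01980 (r 0.88, centred 0.81), which the study describes as a conserved secreted protein. The genes most like tetur04g06010 were tetur01g13460 (r 0.93, centred 0.89), tetur30g00780 (r 0.92, centred 0.90) and tetur26g02370 (r 0.92, centred 0.89).

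For the remaining E-set genes the likeness rested more on the differences between groups. tetur14g01700 was most like tetur05g92632 (r 0.82, centred 0.47), tetur19g00570 (r 0.79, centred 0.30) and tetur11g05670 (r 0.75, centred 0.28). tetur14g02060 was most like tetur06g04580 (r 0.92, centred 0.61), the glycoside hydrolase tetur06g01700 (r 0.91, centred 0.34) and tetur02g15535 (r 0.86, centred 0.42). All these values are descriptions over the same 24 libraries, which share their totals and group means.

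The lipocalin tetur04g06010 and the E-set gene tetur01g02650 moved together among replicates. With DEF over FORM, the values that chose them, they moved in opposite directions. Against CON the DEF log2 FC was 1.69 for tetur04g06010 and -0.27 for tetur01g02650 (SE 0.262, overlapping libraries). Over all libraries their Pearson r was 0.18, and after centring each group it was 0.82 with a Spearman rho of 0.79. Under 100000 permutations within groups, the p was 5e-05 for r and 1.7e-04 for rho, and 5e-04 and 0.0017 after Benjamini-Hochberg adjustment over the 10 pairs of members. Without DEM1 and CON3, the libraries farthest from the median for tetur04g06010, r was 0.72. The groups were not centred again, so both libraries still entered this value through the group means. The permutations treated the replicates of a group as interchangeable, while DEM1 and CON3 stood apart from theirs in the chi-square values. Other genes had a centred r as high, such as tetur30g00780 with tetur04g06010 (0.90) and tetur01g02670 with tetur01g02650 (0.88). The p therefore does not set this pair apart from other genes. For the other 9 pairs the centred r lay between -0.21 and 0.37. Their adjusted permutation p was at least 0.413 for r and at least 0.242 for rho.

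DEM1 was highest and CON3 lowest in their groups for both genes. The most abundant gene of the table, tetur39g00810, took 7.69% of the counts in DEM1, its highest share in any library, and 3.58% in CON3, its lowest. Both yolk precursors did the same within these groups, at 185 CPM in DEM1 and 74.4 CPM in CON3 for tetur20g01230 and at 1014 CPM in DEM1 and 471 CPM in CON3 for tetur07g05480, the highest DEM and the lowest CON values. The part of these genes in the joint variation of tetur04g06010 and tetur01g02650 was not tested.

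**Figure D4:**
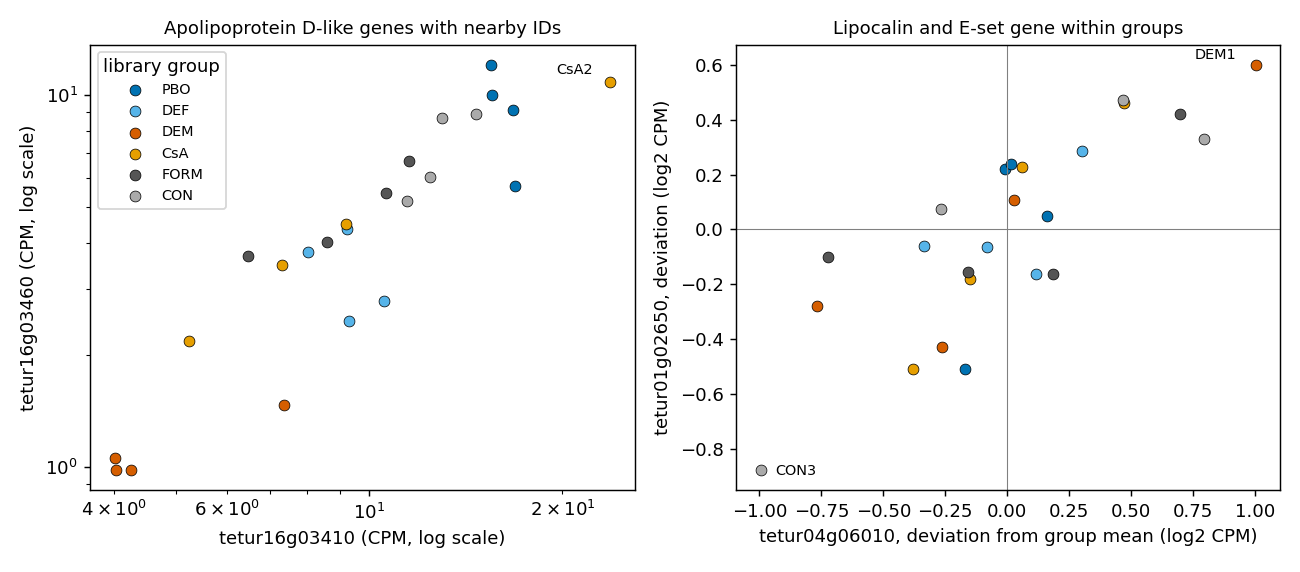
Left, CPM of tetur16g03460 against CPM of tetur16g03410 in the 24 libraries, both on log axes (r of log2 CPM 0.91), with the CsA2 library named. Right, deviation of tetur01g02650 against that of tetur04g06010 from their group means in log2 CPM (r 0.82), with DEM1 named at the upper right and CON3 at the lower left.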

How the data were processed

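PolyA RNA was sequenced with a strand-specific kit. The authors used STAR 2.5.0a for alignment, SAMtools 0.1.19 for sorting, HTSeq 0.6.0 for stranded counting over exons, and FastQC 0.11.4 for quality checks. Reads were aligned to the published T. urticae genome with the gene annotation current at the time, and no coordinates are used here. The deposited values are raw counts.

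In R 4.3.3, edgeR 4.0.16 (filterByExpr, TMM, quasi-likelihood test, 1 mean per group, 24 libraries) was fitted to all genes, with Benjamini-Hochberg adjustment within a comparison. Log2 CPM used a prior count of 2. Exact permutation tests were two-sided over 70 splits. P-values are given only for gene and comparison pairs that did not choose the gene, and none for FORM over CON. The script was tested on simulated data. The members and lists were chosen with earlier results of these data known. The genes named are the 5 members, the 3 most alike of each, the other genes of both lists, the marker genes and any called ID neighbour. Once the values were known, tetur39g00810, tetur16g03490 and the levels of tetur01g02670 were added.

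The settings varied were DESeq2 1.42.0, limma-voom (limma 3.58.1), DESeq2 size factors, no filter, at least 10 counts in every library, the 2 groups alone, a replicate block, calls by adjusted p alone, other controls and each library left out. Robust dispersion and a fit without CON3, DEM1 and CsA4 were chosen after seeing the data. Replicate numbers did not pair the libraries. Lists from a reference annotation were not run, because its IDs matched 0 of the counted genes.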

Additional observations from a re-analysis of the deposited data

Results flagged for a closer look

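In 3 of the 30 sets of 4 libraries (5 genes in 6 groups), 1 library stood far from the other replicates by Dixon's criterion, where chance alone flags about 1 in 20. For tetur16g03460, DEM4 had 1.46 CPM and the other DEM libraries 0.98 to 1.05 CPM. For tetur01g02650, FORM4 had 47.4 CPM and the other FORM libraries 31.6 to 33.0 CPM. For tetur14g02060, CON4 had 639.7 CPM and the other CON libraries 571 to 573 CPM.

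For 3 direct comparisons of synergists that had not chosen the gene, the difference itself passed an edgeR adjusted p of 0.05, as it did for 36.6% of all genes for DEM over PBO and 25.7% for DEF over DEM. DEM was higher than PBO for tetur14g01700 by a log2 FC of 0.82 (edgeR adjusted p = 0.0223, lost without DEM1, PBO3 or PBO4) and for tetur14g02060 by 0.33 (edgeR adjusted p = 0.0225). DEF was lower than DEM for tetur14g02060 by a log2 FC of -0.60 (edgeR adjusted p = 3.87e-04).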

How the results depend on the processing

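Members' values changed most with the control. With CON in place of FORM the log2 FC of tetur16g03460 was 0.35 with PBO, -1.11 with DEF (edgeR adjusted p = 0.0304) and -2.68 with DEM. That of tetur01g02650 was 0.90 with PBO (edgeR adjusted p = 0.0137), turned from -0.06, and it was -0.27 with DEF and 1.01 with CsA (edgeR adjusted p = 0.019). That of tetur14g01700 was 0.24 with DEF, 1.66 with DEM (edgeR adjusted p = 0.00167) and 2.51 with CsA, and that of tetur14g02060 was -0.93 with CsA. With CON and FORM pooled, tetur01g02650 was at -0.75 with DEF, and tetur14g01700 at -0.31 with DEF, 1.11 with DEM (edgeR adjusted p = 0.00416) and 1.96 with CsA. With the adjusted p alone, tetur14g02060 was also called for DEF over FORM (-0.50) and DEM over PBO (0.33). Without CON3, DEM1 and CsA4, DEM over PBO was -0.95 for tetur04g06010, -0.70 for tetur01g02650 and 0.50 for tetur14g01700 (edgeR adjusted p = 0.0167, 0.0106 and 0.0578), DEM over FORM was -0.76 for tetur01g02650 and FORM over CON 1.43 for tetur14g01700. With 1 library left out, DEM over FORM ranged from -0.77 to -0.37 for tetur01g02650 and FORM over CON from 0.84 to 1.42 for tetur14g01700, DEM over PBO ranged from -0.95 to -0.26 for tetur04g06010, from -0.70 to -0.33 for tetur01g02650 and from 0.50 to 0.98 for tetur14g01700, and DEF over DEM from -0.66 to -0.57 for tetur14g02060. With CON in place of FORM, the log2 FC of a gene moves by the same amount in every treatment. That amount is its FORM over CON value, 0.97 for tetur01g02650 and 1.09 for tetur14g01700. These moves are therefore not separate changes of each treatment. Why FORM and CON differ, and the cause of the other shifts, was not tested. No leave-one-out fit turned the direction of a called value. Genes called with the adjusted p alone were 1137 for PBO, 1136 for DEF, 1418 for DEM and 463 for CsA over FORM, 189 for PBO over DEF, 4084 for PBO over CsA, 4661 for DEM over PBO, 3272 for DEF over DEM and 2563 for DEF over CsA. CsA over FORM, at 140, gave 92 with limma-voom, 607 without the 3 libraries and 506 without CsA4 alone. Without the 3 libraries the counts were 458 for PBO over FORM, 449 for DEF over FORM and 1197 for DEF over CsA. FORM over CON, at 3, gave 7 with DESeq2 and 1 with the 2 groups alone. PBO over DEF, at 44, gave 77 with DESeq2, 90 with the 2 groups alone, 68 with the replicate block and 131 without the 3 libraries, and DEM over CsA, at 76, gave 140 without them. With 1 library left out the counts ranged from 222 to 303 for PBO over FORM (lowest without PBO1), 229 to 395 for DEF (lowest without DEF1), 95 to 356 for DEM (lowest without FORM3), 68 to 506 for CsA (lowest without CsA1), 1 to 10 for FORM over CON (highest without CON1), 20 to 46 for PBO over DEF (lowest without DEF3), 59 to 98 for DEM over CsA (lowest without DEM2) and 530 to 1163 for DEF over CsA (lowest without CsA1). Lipocalins called with PBO, main count 1, were 2 with limma-voom, 3 with the 2 groups alone, 0 against CON and 0 to 1 with 1 library left out. With DEF, main count 1, they were 2 with limma-voom, the 2 groups alone, the replicate block, CON as control and without the 3 libraries, and 1 to 2 with 1 library left out, and with CsA 0 to 1. E-set genes called against CON were 1 with PBO, 0 with DEF and 1 with DEM, 1 with DEM against the pooled controls, and 1 each for DEM over FORM and FORM over CON without the 3 libraries. ID neighbours called, main count 1, were 3 with DESeq2, limma-voom or the 2 groups alone, 2 with size factors, the 10-count minimum or the replicate block, 16 with the adjusted p alone, 9 against CON, 7 against the pooled controls, 6 without the 3 libraries and 1 to 2 with 1 library left out. Same-numbered libraries deviated together with r from -0.28 to 0.30, so the numbers were not taken as pairs, and the replicate block changed no call of a member. Depth limited tetur16g03460 in DEM most, at 15 to 26 counts a library.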
